A study of Mus musculus with 10 samples.

Results

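Cholesterol synthesis was followed through 8 genes in subcutaneous tumours of MC38, a mouse colon carcinoma cell line. The genes are the transcription factor gene Srebf2, its feedback regulator Insig1, and 6 genes of pathway enzymes: Hmgcs1, Idi1, Fdft1, Sqle, Lss and Cyp51. They were taken by symbol from a table of 18223 genes, not by their measured values, and all 8 passed the filter on low counts that left 13470 genes for testing. RNA-seq was made of 10 tumours, 5 of high tumour burden (HTB) and 5 of low (LTB). HTB carries a treatment label of 2000000 and LTB one of 500000, both with 14 days, read here as the number of injected MC38 cells and the time of growth. All tumours come from that 1 cell line, and the labels used here give no host strain, sex, age or other agent and no measured tumour size. Nothing states that the libraries are separate animals, so p-values measure the spread between these libraries, which may be partly technical.

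Cells make cholesterol from acetyl-CoA through mevalonate, squalene and lanosterol. SREBP2, the product of Srebf2, is held in the endoplasmic reticulum by SCAP and the INSIG proteins while membrane sterol is plentiful. When sterol runs low it moves to the Golgi, is cleaved and enters the nucleus, where it raises transcription of the synthesis enzymes, of sterol uptake genes, of INSIG1 and of its own gene.

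Because SREBP2 acts at the promoters of these genes, promoter sequence is shown for 4 of them before their levels. The RefSeq promoter table (GRCm38.p6) matched 6 of the 8 genes, all but Sqle and Fdft1. Each stretch is written 5′ to 3′ on the strand of the gene and ends before both the RefSeq and the GENCODE start of the gene. Capitals mark TCACCNCA, a short core of the sterol regulatory element, CACGTG (an E-box), CCAAT or its complement ATTGG (the box bound by NF-Y), and GGGCGG or its complement CCGCCC (the GC box bound by Sp1). 
Srebf2 (chr15:82147019-82147180, plus strand): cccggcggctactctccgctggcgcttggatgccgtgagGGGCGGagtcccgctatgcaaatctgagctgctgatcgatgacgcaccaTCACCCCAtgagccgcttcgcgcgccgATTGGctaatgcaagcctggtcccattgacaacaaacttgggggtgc
Hmgcs1 (chr13:119690101-119690350, plus strand): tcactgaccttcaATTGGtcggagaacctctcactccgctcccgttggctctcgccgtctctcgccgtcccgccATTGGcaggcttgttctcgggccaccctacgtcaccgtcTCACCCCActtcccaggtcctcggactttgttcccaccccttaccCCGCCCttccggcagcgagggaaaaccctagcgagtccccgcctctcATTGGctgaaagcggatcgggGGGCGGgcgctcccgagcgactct
Cyp51 (chr5:4104747-4104947, minus strand): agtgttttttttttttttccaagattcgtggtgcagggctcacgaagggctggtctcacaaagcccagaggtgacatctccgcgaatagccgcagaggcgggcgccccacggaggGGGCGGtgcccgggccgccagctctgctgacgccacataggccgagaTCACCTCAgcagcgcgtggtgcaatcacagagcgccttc
Insig1 (chr5:28071162-28071362, plus strand): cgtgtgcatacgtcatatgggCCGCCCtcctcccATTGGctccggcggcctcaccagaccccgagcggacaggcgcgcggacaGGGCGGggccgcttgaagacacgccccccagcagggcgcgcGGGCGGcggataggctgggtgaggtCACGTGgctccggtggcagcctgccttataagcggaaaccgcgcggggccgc

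Motifs were searched on both strands of the 250 bases before each RefSeq start. CCAAT was found in 6 of the 6 promoters of these genes and in 33.8% of all 32851 promoters of the table. GGGCGG was likewise in 6 of 6 and in 32.7% of all promoters. TCACCNCA, chosen after the promoters had been read, was in 3 of 6 (Srebf2, Hmgcs1 and Cyp51) against 3.61% of all. It starts 162 bases before the Srebf2 start, 137 before that of Hmgcs1 and 88 before that of Cyp51. The stricter TCACNCCAC, which overlaps it, was found in Hmgcs1 alone of the 6 and in 1.05% of all promoters. CACGTG was found in Insig1 alone, against 6.02% of all. A longer form of the sterol regulatory element was in 0 of the 6 and in 0.0731% of all promoters. These matches are descriptions of sequence; no binding was measured.

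The libraries held between 23070917 and 27185168 estimated reads. As a check of the label, the 6 epithelial markers Krt8, Krt18, Krt19, Krt7, Epcam and Cdh1 summed to only between 2.78 and 7.03 in HTB and between 6.46 and 16.2 in LTB, in counts per 1e6 reads of the library (CPM), and Krt8, Krt18 and Krt19 were at or near 0 in every library. HTB replicate 2 stood apart, with 13273 CPM summed over 7 skeletal muscle genes against 7.54 to 53.7 in the other HTB libraries, and 3644 CPM over 7 adipocyte genes against 85.1 to 243. LTB replicate 1 stood apart by immune transcripts, with 189 CPM over 7 T cell genes against 42.4 to 87.7 in the other LTB libraries and 2076 CPM over 8 macrophage genes against 1016 to 1607. Krt5, of basal keratinocytes, was at 6.89 CPM in LTB replicate 1 and at 0 in every other library. The sum of the 6 keratinocyte markers did not set that library apart, at 43.5 CPM against 32.0 to 51.7 CPM in the other LTB libraries. Most of that sum was Krt14, at 31.5 CPM in LTB replicate 1, while Krt1, Krt15 and Dsg3 were, like Krt5, highest there. The 6 sebocyte markers summed to 14.4 CPM in LTB replicate 1, against 3.46 to 4.89 CPM in the other LTB libraries and 3.59 to 6.18 CPM in HTB. Of these, Awat2 and Mc5r were highest in HTB replicate 2 instead. Whether these contents bear on the cholesterol genes was not tested, so the group comparisons, the spread and the correlations of the 8 genes are also given without both libraries. In whole tumours, fewer cells of a type and less RNA per cell cannot be told apart.

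None of the 8 genes differed detectably between high and low burden. By edgeR's quasi-likelihood test 0 of 8 passed an adjusted p of 0.05, against a background of 11.4% of all genes tested, (3.9% higher and 7.51% lower in HTB). At an unadjusted p under 0.05 the count was 0 of 8, where 29.1% of all genes stood. DESeq2 and limma voom also called 0. The log2 fold changes ran from -0.22 for Cyp51 to 0.05 for Hmgcs1, with a median of -0.11 beside 0.02 over all genes tested. The 8 genes varied between libraries within the groups. All 8 were lowest in LTB replicate 1, as were 22.2% of all genes tested, and 6 of the 8 were highest in LTB replicate 5, as were 12.03% of all genes tested.

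Srebf2 (NCBI gene 20788, chromosome 15 from 82147269 to 82205379 in GRCm38, plus strand), which encodes the sterol-sensing transcription factor, stood at 232, 266, 287, 268 and 209 CPM in HTB replicates 1 to 5. In LTB replicates 1 to 5 it stood at 127, 315, 265, 241 and 435 CPM. The 5 HTB values all lay inside the LTB range, which spanned 3.42-fold against 1.37-fold in HTB. The means were 252 ± 31.2 CPM in HTB and 277 ± 112 CPM in LTB (SD, n = 5 each), which is -0.13 ± 0.25 as log2 of HTB over LTB (± SE; edgeR adjusted p = 0.763), with a 95% interval from -0.69 to 0.43.

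Insig1 (NCBI gene 231070, chromosome 5 from 28071412 to 28078662, plus strand) encodes the membrane protein that retains the SREBP-SCAP complex and is itself a sensitive SREBP2 target. Its values were 132, 249.9, 174, 163 and 109 CPM in HTB and 47.3, 199, 197, 132 and 254 CPM in LTB, in order of replicate number. LTB held both the lowest and the highest library. The group means were 166 ± 53.6 and 166 ± 79.2 CPM (SD, n = 5 each), and the log2 fold change was 0.00 ± 0.38 (edgeR adjusted p = 0.999), with an interval from -0.83 to 0.83.

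In the mevalonate route, Hmgcs1 (NCBI gene 208715, chromosome 13 from 119690351 to 119708260, plus strand) encodes the cytosolic synthase that makes HMG-CoA. It measured 228, 363, 322, 267 and 134 CPM in HTB and 84.3, 331, 319, 179 and 359 CPM in LTB. LTB replicate 1 was lowest, HTB replicate 2 highest, and the groups overlapped. The means, 263 ± 88.6 and 255 ± 118 CPM (SD, n = 5 each), gave a log2 fold change of 0.05 ± 0.37 (adjusted p = 0.948, edgeR). Idi1 (NCBI gene 319554, chromosome 13 from 8884914 to 8892396, plus strand) encodes the isomerase that makes dimethylallyl diphosphate. It measured 93.7, 138, 143, 122 and 61.0 CPM in HTB and 34.8, 164, 152, 92.3 and 172 CPM in LTB. LTB replicate 1 was the only library below the lowest HTB value, and LTB replicates 2, 3 and 5 were above the highest. The log2 fold change was -0.14 ± 0.38 (adjusted p = 0.836).

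Fdft1 (NCBI gene 14137, chromosome 14 from 63145150 to 63181687, minus strand in GENCODE) encodes squalene synthase, the first step committed to sterols. It measured 78.3, 162, 108, 87.8 and 54.7 CPM in HTB and 40.5, 128, 111, 84.5 and 159 CPM in LTB. Here HTB replicate 2 was the highest of all, just above LTB replicate 5, and the log2 fold change was -0.09 ± 0.36 (adjusted p = 0.889, edgeR). Sqle (NCBI gene 20775, chromosome 15 from 59315092 to 59331743, plus strand) encodes squalene epoxidase, a flux-controlling oxygen-dependent enzyme. It measured 140.0, 215, 180.1, 164 and 79.3 CPM in HTB and 58.7, 203, 205, 121 and 273 CPM in LTB. All HTB values lay inside the LTB range, and the log2 fold change was -0.15 ± 0.37 (adjusted p = 0.824).

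Lss (NCBI gene 16987, chromosome 10 from 76531565 to 76557139, plus strand) encodes the cyclase that forms lanosterol. It measured 56.1, 85.2, 96.0, 76.3 and 55.0 CPM in HTB and 31.2, 96.2, 89.5, 57.1 and 116 CPM in LTB, so the HTB range again lay within that of LTB. Its log2 fold change was -0.08 ± 0.31 (adjusted p = 0.884, edgeR). Cyp51 (NCBI gene 13121, chromosome 5 from 4080674 to 4104697, minus strand in GENCODE) encodes lanosterol demethylase. It measured 177, 284, 264, 229 and 116 CPM in HTB and 79.8, 305, 275, 164 and 421 CPM in LTB. LTB replicates 1 and 5 bounded all the others, at a 5.28-fold distance, and the log2 fold change was -0.22 ± 0.39 (adjusted p = 0.744).

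**Figure D1:**
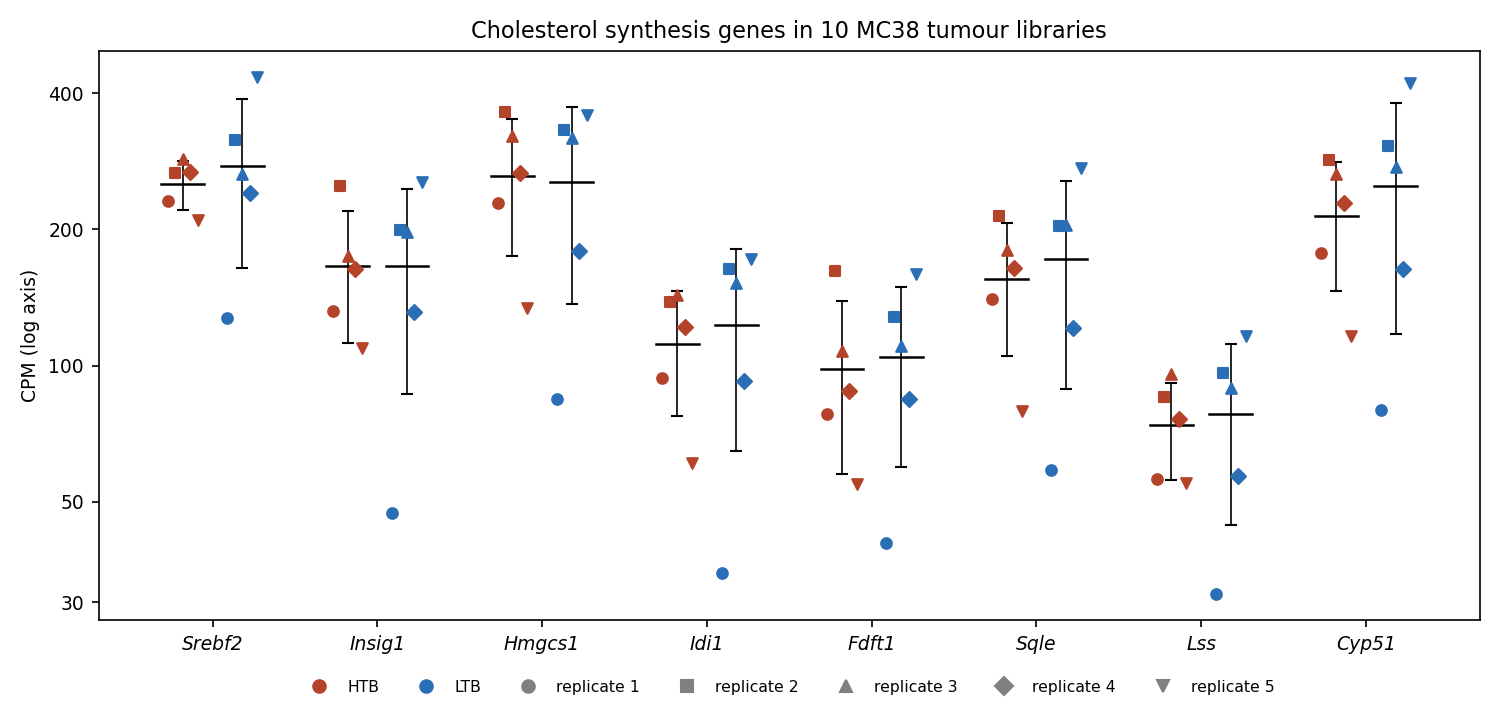
CPM (log axis) of the 8 cholesterol synthesis genes in each library; red points are HTB, blue points LTB, the marker shape gives the replicate number, and bars show the mean and SD of 5 libraries. LTB replicate 1 (blue circle) is lowest for every gene, down to 31.2 CPM for Lss, and HTB and LTB overlap throughout.

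The intervals show how large a change these data leave possible. On the linear scale the 95% intervals of the 8 genes reached from 0.474-fold (Cyp51) to 1.83-fold (Hmgcs1), so a 1.5-fold change in either direction lay inside the interval for all but Srebf2, whose upper bound was 1.35-fold. The authors' deposited table lists q values from 0.867 to 0.996 for the 8 genes. An exact two-sided permutation test over the 10 libraries on log2(CPM + 1), which can go down to p = 0.0079, gave values from 0.746 (Hmgcs1) to 0.992 (Idi1). With HTB replicate 2 and LTB replicate 1 left out together, all 8 log2 fold changes were negative, from -0.32 to -0.57 with a median of -0.45. Of the 8, 0 passed (smallest adjusted p = 0.0929, edgeR), where 21.6% of all genes passed the adjusted threshold. At an unadjusted p under 0.05 by edgeR there were 2 of 8, and the share of all genes at that threshold is not given for this fit. Without LTB replicate 1 alone the median was -0.31, and without HTB replicate 2 alone -0.21, in each case with 0 of 8 passed. Leaving out other libraries moved the values the other way. Without LTB replicate 5 alone all 8 were positive, from 0.01 to 0.2 with a median of 0.1. Without HTB replicate 5 alone the median was 0.02, with 2 of 8 negative. There too 0 of 8 passed, so the sign of the 8 genes depended on which library was dropped.

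The genes were also compared with each other for a difference in how much they changed. The log2 ratio of each pair within a library was tested between the groups by an exact two-sided permutation test, adjusted over the 28 pairs. No pair passed. The exact test can go down to p = 0.0079, and a lone pair at that value could not pass the adjustment. The absence of calls therefore cannot decide whether a lone pair differed in its change. The differences in change ran from -0.18 to 0.22, and the smallest unadjusted p, 0.0159 (adjusted p = 0.222, exact permutation test), belonged to Hmgcs1 with Sqle and Hmgcs1 with Cyp51, where Hmgcs1 stood 0.19 and 0.22 higher in HTB relative to its partner. At an unadjusted p under 0.05 the count was 2.

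**Figure D2:**
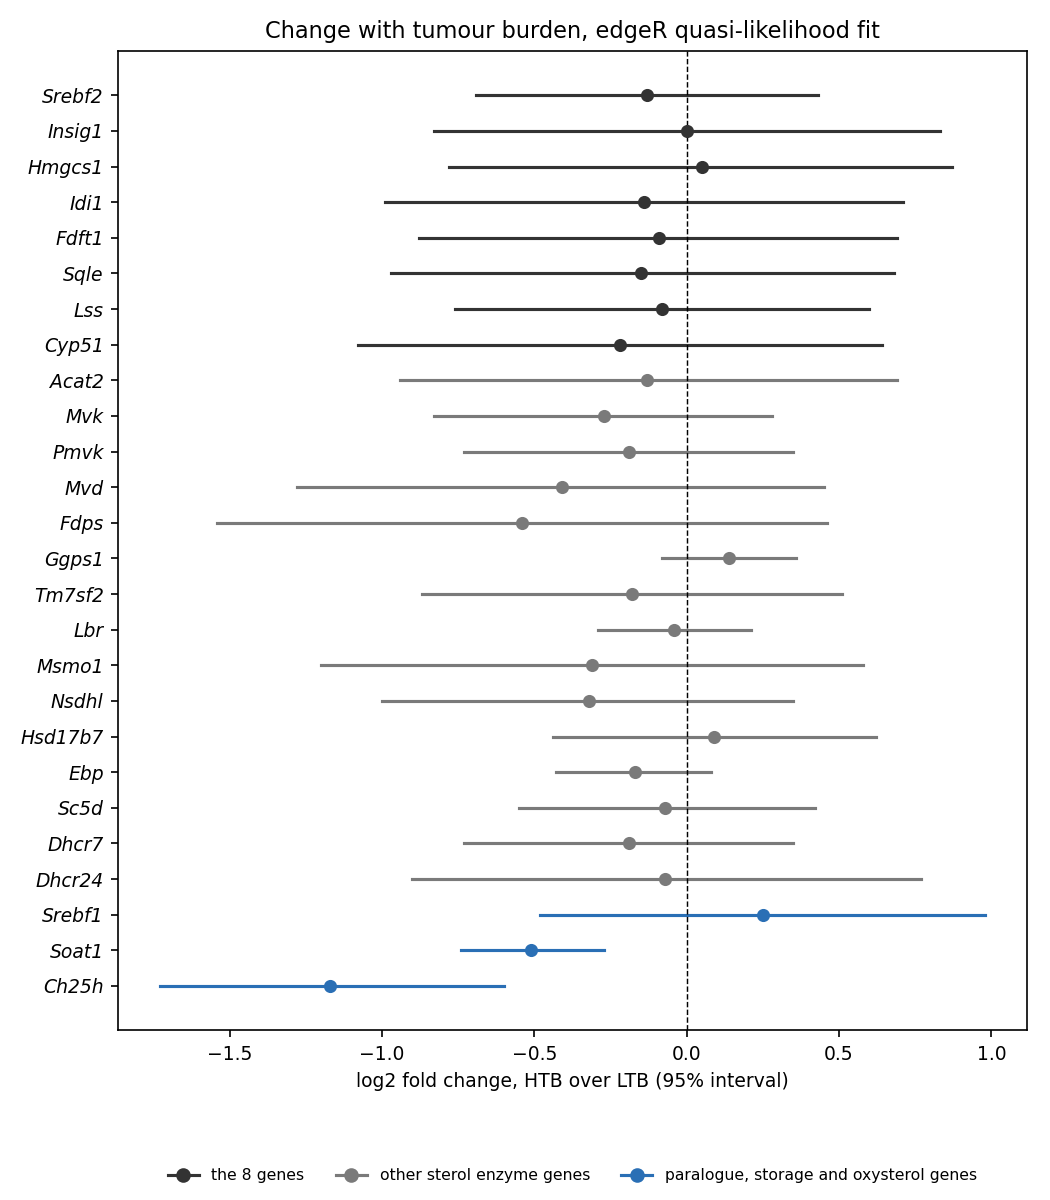
Log2 fold change of HTB over LTB (x axis) with its 95% interval from the edgeR quasi-likelihood fit for the 8 genes, 15 other sterol enzyme genes and 3 related genes (y axis). The intervals of all 8 genes cross 0, as do those of all 15 other enzymes, while Soat1 (-0.51) and Ch25h (-1.17) lie below it.

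Within the groups the genes differed widely between libraries and did so together. The SD of log2 CPM around the group mean was 0.48 for Srebf2 and between 0.59 (Lss) and 0.78 (Idi1) for the other 7, where the median over all genes tested was 0.18. That places the 8 genes between the 85.3 and the 94.2 percentile of within-group spread. Without HTB replicate 2 and LTB replicate 1 the median SD of the 8 genes dropped from 0.74 to 0.44, where that of all genes was 0.13, and their percentiles lay between 82.0 and 94.3. LTB replicate 1 was the lowest library for 8 of 8, and for 22.2% of all genes tested. HTB replicate 5 was the lowest HTB library for 8 of 8, and for 25.9% of all genes tested. LTB replicate 5 was the highest library for 6 of 8, and for 12.03% of all genes tested; Hmgcs1 and Fdft1 were highest in HTB replicate 2.

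Deviations of log2 CPM from the group means were then correlated over the 10 libraries for the 28 pairs. Pearson's r ranged from 0.883 to 0.993 and Spearman's rho from 0.806 to 0.988, and the largest adjusted p over the 28 pairs was 2.40e-04 for r and 0.0071 for rho (permutation test of the deviations, two-sided, 100000 resamples). Srebf2 correlated with the other 7 genes at r from 0.883 to 0.949, a range that overlapped the 0.920 to 0.993 among the other 7. Leaving out the 2 libraries farthest from the median, LTB replicate 1 with either LTB replicate 5 or HTB replicate 5, gave r from 0.782 to 0.984. Without HTB replicate 2 and LTB replicate 1, r ran from 0.757 to 0.993 with a median of 0.948, beside 0.964 in all 10 libraries. The values share libraries and their depth, and 5 libraries a group are too few for a correlation within each group.

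**Figure D3:**
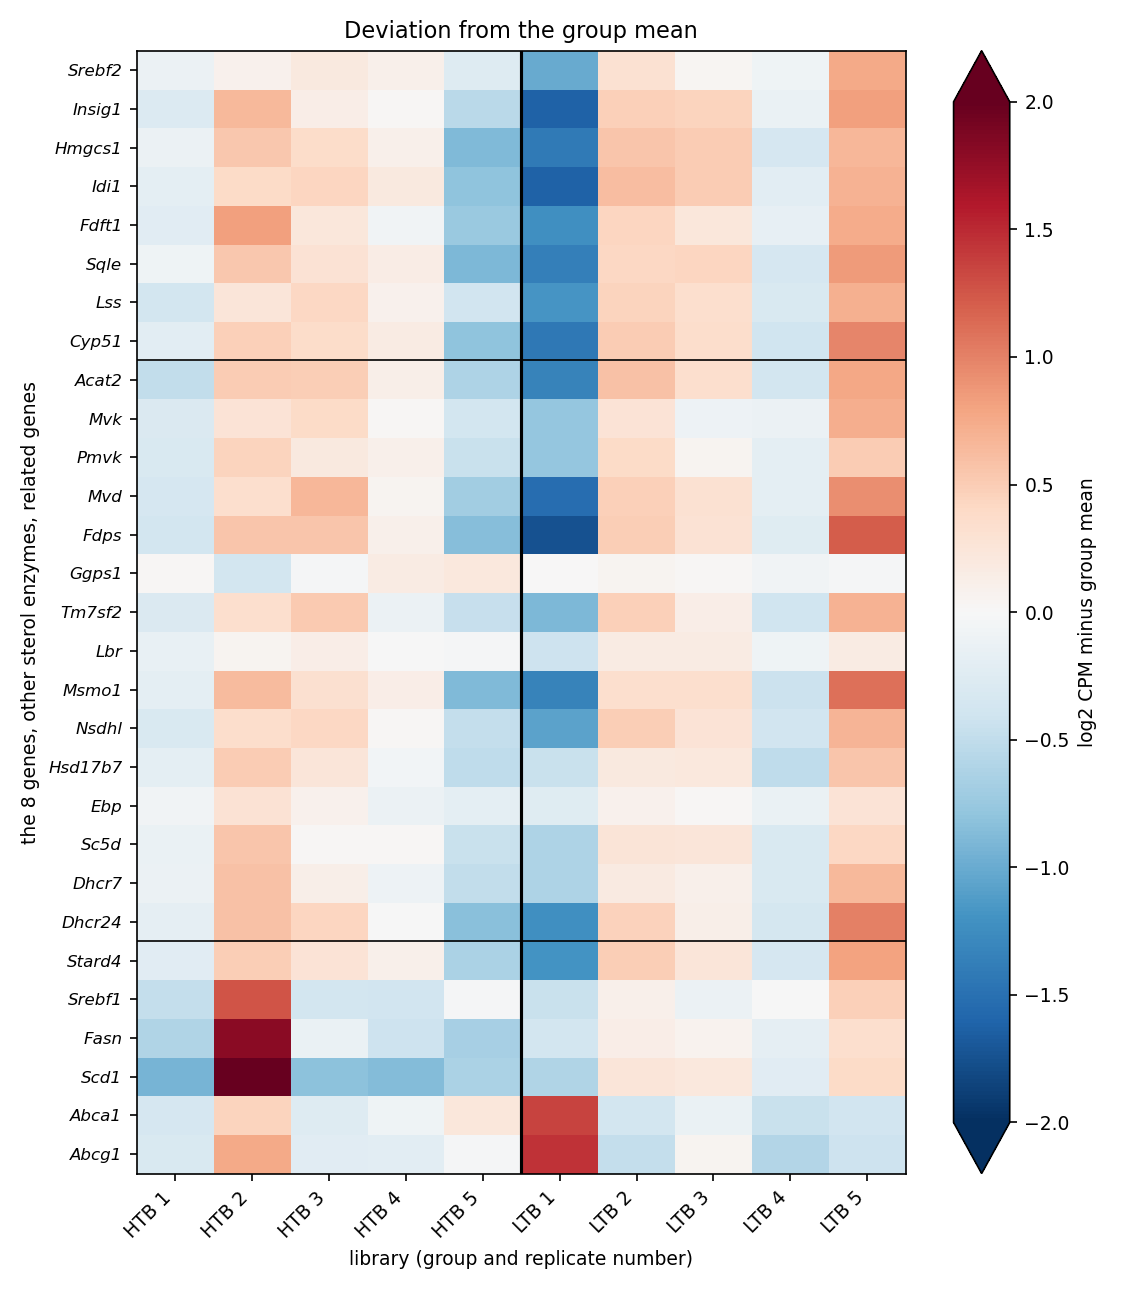
Deviation of log2 CPM from the mean of its own group (colour, blue below and red above) for the 8 genes, the 15 other sterol enzymes and 6 related genes (y axis, divided by lines) in the 10 libraries (x axis). Of the 15 other sterol enzymes, 11 have their lowest CPM in LTB replicate 1 and 12 their highest in LTB replicate 5, whereas Abca1 and Abcg1 are high in LTB replicate 1.

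Levels between genes were set side by side per kilobase of merged GENCODE exons, over all 10 libraries. Hmgcs1 was the most abundant at 74.3 ± 28.3 CPM per kb (SD, n = 10), followed by Insig1 at 61.5 ± 23.6, Sqle at 59.4 ± 23.8, Cyp51 at 58.9 ± 25.6 and Srebf2 at 52.1 ± 15.5 CPM per kb. Idi1 at 38.8 ± 15.1, Fdft1 at 27.4 ± 10.96 and Lss at 16.3 ± 5.48 CPM per kb were lower. Neighbours in this order differed by less than the larger of their SDs, except Fdft1 and Lss. Insig1, Sqle, Cyp51 and Srebf2 had no fixed order between libraries, each neighbouring pair keeping it in 5 or 6 of 10, while Srebf2 exceeded Idi1, Idi1 exceeded Fdft1 and Fdft1 exceeded Lss in 10 of 10.

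Nor did the other enzymes of the pathway pass. Of 15 other genes of the route from acetyl-CoA to cholesterol, 0 passed and 0 had an unadjusted p under 0.05 by edgeR, where 11.4% and 29.1% of all genes tested did. DESeq2 and limma voom called 0 of the 15. Their median log2 fold change was -0.18, with 13 below 0, and the largest were those of Fdps, farnesyl diphosphate synthase (-0.54 ± 0.45), and Mvd, mevalonate diphosphate decarboxylase (-0.41 ± 0.39). Of the 15, 11 were lowest in LTB replicate 1 and 12 highest in LTB replicate 5. Without HTB replicate 2, 1 of the 15 passed, in a fit that called 22.4% of all genes. It was Ggps1 (higher), which makes the geranylgeranyl diphosphate of protein prenylation. Without both doubted libraries, Ggps1 (higher) and the sterol isomerase gene Ebp (lower) passed. In that last fit the median of the 15 was -0.47 and 14 lay below 0, with 21.6% of all genes passing the adjusted threshold. At an unadjusted p under 0.05 by edgeR there were 10 of the 15. The share of all genes at that unadjusted threshold is not given for this fit, so the 10 cannot be set against it.

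Genes most like the 8 in their deviations were sought among 11586 candidates, by Pearson's r over 10 libraries with the mean standardized deviation of the 7 genes other than Srebf2. The 5 highest were Stard4, a sterol carrier (r = 0.993), Fdps (0.987), the centromere gene Cenpn (0.985), Acat2, which begins the mevalonate route (0.982), and the cell cycle phosphatase gene Cdkn3 (0.982). Because they were chosen as the highest, no test applies to them. Above r = 0.9 were 116 candidates, 1.0% of all, and among these 12 of the 15 other sterol enzyme genes. Ggps1 stood at -0.348, the only one of the 15 below 0. The 5 names rest on HTB replicate 2 and LTB replicate 1: without both, 0 of these 5 were among the 5 highest, though they kept r from 0.951 to 0.988, and 11 of the 15 enzymes were above 0.9.

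Genes listed for SREBP control gave no call either, with Srebf1, the paralogue of Srebf2, counted among them. Of 12, among them the escort gene Scap, the Insig1 paralogue Insig2 and the protease genes Mbtps1 and Mbtps2, 0 passed by edgeR, DESeq2 or limma voom. At an unadjusted p under 0.05 there were 0. The shares of all genes tested by edgeR were 11.4% and 29.1%. Scap measured 63.3 ± 3.08 CPM in HTB and 60.8 ± 2.80 CPM in LTB (SD, n = 5 each). The median within-group SD of these 12 was 0.10 on the log2 scale, beside 0.74 for the 8 genes; the difference was not tested. Mbtps1, the site-1 protease, passed as higher in HTB only in fits without HTB replicate 2 or with sample quality weights.

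Srebf1 is the paralogue of Srebf2 whose products drive fatty acid synthesis. It measured 53.9, 179, 58.4, 57.7 and 74.3 CPM in HTB and 51.5, 74.7, 64.2, 69.4 and 96.4 CPM in LTB. HTB replicate 2, the library rich in skeletal muscle and adipocyte transcripts, was far above the others. The log2 fold change of 0.25 ± 0.33 (adjusted p = 0.653, edgeR) became -0.22 without that library (adjusted p = 0.339, edgeR). Of 13 tested fatty acid synthesis genes, 0 passed by edgeR, DESeq2 or limma voom, and 1 had an unadjusted p under 0.05. The shares of all genes tested by edgeR were 11.4% and 29.1%. In HTB replicate 2, Scd1, the stearoyl-CoA desaturase, stood at 3077 CPM against 168 to 205 CPM in the rest of HTB, and Fasn, fatty acid synthase, at 1059.7 CPM against 194 to 279. Hmgcs1 in that library, at 363 CPM, was followed by 322 CPM in HTB replicate 3.

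Of 12 tested uptake and transport genes 0 passed by edgeR or limma voom and 3 had an unadjusted p under 0.05. By edgeR 11.4% of all genes tested passed, and 29.1% had an unadjusted p under 0.05. DESeq2 called 2, the lysosomal sterol carrier gene Npc2 (lower) and the oxysterol-binding protein gene Osbp (higher), in a fit that called 18.0% of the genes it adjusted. Npc2 stood at 279.7 ± 15.2 against 372 ± 78.4 CPM (SD, n = 5 each), with an adjusted p of 0.0549 by edgeR that became 0.0464 without LTB replicate 1 and 0.0487 without LTB replicate 5.

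Among 13 genes of sterol efflux, storage and oxysterols, 2 fell and 0 rose in HTB, where 7.51% of all genes tested fell and 3.9% rose. Their list's median log2 fold change was -0.21. Soat1, the enzyme that esterifies cholesterol for storage, measured 53.3, 56.0, 46.7, 53.7 and 49.0 CPM in HTB and 93.2, 65.9, 65.9, 64.9 and 78.3 CPM in LTB. The groups did not overlap, as was so for 11.7% of all genes tested, and Soat1 fell by 0.51 ± 0.11 on the log2 scale (adjusted p = 0.0145, edgeR). Ch25h, which makes 25-hydroxycholesterol, an oxysterol that suppresses SREBP2 processing and is induced by interferon in macrophages, measured 5.97, 7.59, 7.47, 6.70 and 4.36 CPM in HTB and 8.48, 15.6, 15.5, 10.5 and 22.2 CPM in LTB. It too did not overlap, and it fell by 1.17 ± 0.26 (adjusted p = 0.0176, edgeR). Both passed without HTB replicate 2 and LTB replicate 1, at -0.44 and -1.38.

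Macrophage transcripts also differed between the groups in sum, at 585 to 964 CPM in HTB libraries and 1016 to 2076 CPM in LTB libraries. Of the 8 macrophage markers 4 fell: Cd68, Itgam, Lyz2 and Msr1. Adgre1, Csf1r, Mrc1 and C1qa did not pass (adjusted p from 0.145 to 0.881, edgeR). Of 7 T cell markers 5 fell, their sum reaching at most 41.8 CPM in HTB and at least 42.4 CPM in LTB. The 6 keratinocyte markers summed to 4.42 to 12.4 against 32.0 to 51.7 CPM, a gap that was mostly Krt14. Only 2 of the 6 passed the filter on low counts. Krt14 fell, with means of 4.38 CPM in HTB and 39.9 CPM in LTB, and Krt10 was level at 3.11 and 3.12 CPM. Within LTB, replicate 1 had the highest macrophage and T cell sums, the lowest Ch25h (8.48 CPM) and the highest Soat1 (93.2 CPM). Within HTB, replicate 5 had the lowest macrophage sum (585 CPM) and the lowest Ch25h (4.36 CPM). The part of these transcripts in the fall of Soat1 and Ch25h was not tested. Ch25h deviated from its group means much as the synthesis genes did (r = 0.949 over 10 libraries, and 0.973 without HTB replicate 2 and LTB replicate 1), whereas Soat1 had r = -0.436, which turned to 0.36 without those libraries. The efflux pumps Abca1 and Abcg1, targets of the oxysterol-sensing LXR factors, did not pass in all 10 libraries (adjusted p = 0.159 and 0.132, edgeR). Abcg1 passed as lower in HTB without HTB replicate 2, and both passed as lower without HTB replicate 2 and LTB replicate 1. Abca1 stood at 136 CPM in LTB replicate 1, the tumour where the synthesis genes were lowest, against 26.96 to 48.2 CPM in the other 9 libraries. Abcg1 likewise had 55.5 CPM there against 9.29 to 21.2 CPM elsewhere. Without HTB replicate 2 the number that fell in this list was 6 of 13, and without both doubted libraries 7, in fits that called 22.4% and 21.6% of all genes against 11.4% in all 10 libraries.

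**Figure D4:**
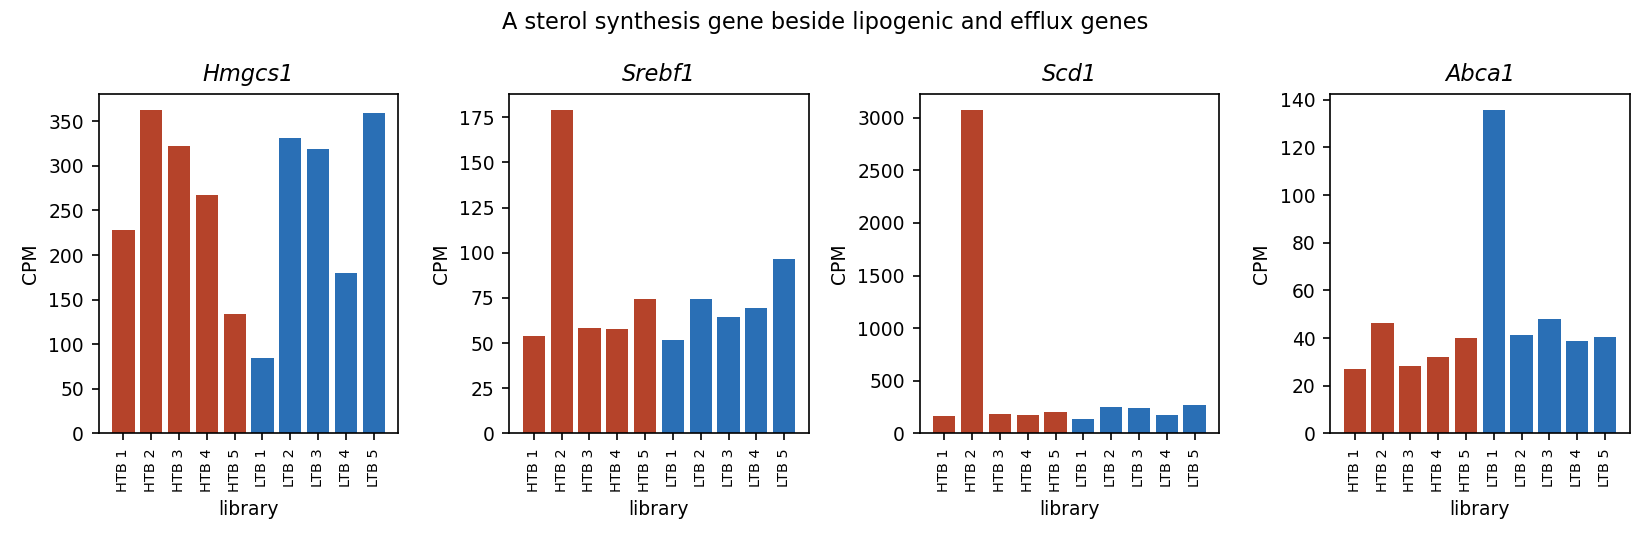
CPM (linear axis from 0) of Hmgcs1, Srebf1, Scd1 and Abca1 in each library (x axis; red HTB, blue LTB). Srebf1 and Scd1 peak in HTB replicate 2 (179 and 3077 CPM), Abca1 in LTB replicate 1 (136 CPM), where Hmgcs1 is at its lowest (84.3 CPM).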

How the data were processed

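Per the labels' protocols, RNA came from an RNeasy kit and went into SMARTer mRNA libraries; per the submitters' processing notes the build was GRCm38 (mm10). Aligner, counter and strandedness: not given in the sources used here. Reads of overlapping or antisense genes may therefore be mixed. The deposited table gives estimated counts per gene, 86.4% of them whole (within 1e-09) and the rest rounded. It also holds the authors' log2 fold changes and their DESeq2 p-values and q-values per the file headers; these are positive where HTB is higher. One line with no gene was left out.

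Groups were compared by quasi-likelihood F test in edgeR 4.0.16 (R 4.3.3) with TMM factors from 0.975 to 1.03 and filterByExpr, group as the only term, with Benjamini-Hochberg adjustment over 13470 genes and a threshold of 0.05. Library totals were 23070917 to 27185168 reads, and CPM used the totals over the genes tested, scaled by the TMM factors. Standard errors are the log2 fold change over the root of F, and 95% intervals use the test's degrees of freedom. Counts simulated for this comparison with 50 of 13410 genes changed at each size gave back 46% of the 1.5-fold genes, 72% of the 2-fold, 96% of the 4-fold and 98% of the 8-fold ones, with 8.77% of calls false, above the threshold of 0.05. The changed genes were drawn at random among expressed genes. Because the 8 genes had a median SE of 0.37 beside 0.11 over all genes tested, these shares do not apply to them. No library pair of a group agreed within sampling noise.

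The genes, lists, motifs and tests were chosen with earlier results of these data known, and TCACCNCA after the promoters were read. Named by rule were the 8 genes, each gene of the other lists that passed (3 a direction where more than 6 did), Srebf1, and the 5 most alike whose log2 CPM averaged 1 or more. Other genes were named after their values were seen. March6 did not match by symbol, and 2 genes of the lists are not reported here and were left out of the list counts. Alternatives were DESeq2 1.42.0, limma 3.58.1 voom with and without quality weights, other scalings, filters and no rounding, the replicate number as a block, and left-out libraries; the spread and correlations without HTB replicate 2 and LTB replicate 1 were added after the data were seen. Permutation tests used SciPy 1.17.1.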

Additional observations from a re-analysis of the deposited data

Results flagged for a closer look

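Srebf1 in HTB replicate 2 stood at 179 CPM, far from the 53.9 to 74.3 CPM of the other 4 HTB libraries, a gap of 0.837 of the group's range, above Dixon's critical value for 5 samples. It was the only such case among 22 gene and group combinations examined (the 8 genes, Srebf1, Soat1 and Ch25h in each group); chance gives about 1 in 20. The same library had 3644 CPM summed over 7 adipocyte genes and 13273 CPM over 7 skeletal muscle genes. Whether either bears on Srebf1 was not tested.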

How the results depend on the processing

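Across 20 alternatives none of the 8 genes passed (smallest adjusted p = 0.0929). Their 160 log2 changes lay between -0.57 and 0.21, and 18 changed sign. Signs of changes this small carry no call: Hmgcs1 was -0.10 with quality weights and -0.32 without both HTB replicate 2 and LTB replicate 1, where Srebf2 was -0.33, Idi1 -0.47, Fdft1 -0.55, Sqle -0.51, and Lss -0.34; Lss was 0.03 by limma voom and 0.02 with the replicate block. Leaving out 1 library at a time gave -0.32 to 0.09 for Srebf2, -0.24 to 0.20 for Insig1, -0.18 to 0.21 for Hmgcs1, -0.38 to 0.01 for Idi1, -0.35 to 0.11 for Fdft1, -0.37 to 0.08 for Sqle, -0.29 to 0.10 for Lss, -0.45 to 0.05 for Cyp51 and -0.22 to 0.38 for Srebf1. Srebf1 was -0.24 with quality weights and -0.32 without both libraries. Plain library totals moved none of 16 group means by as much as 1 SD. No pair of the 8 genes passed for a difference in change in any of the left-out fits, where a lone pair could not pass the adjustment either.

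Over all genes, 1537 passed (526 higher, 1011 lower). The count was 2526 by DESeq2 (1097 higher), 3592 with quality weights (1605 higher, 1987 lower), 971 with the replicate block (221 higher) and 2907 without both libraries (1245 higher, 1662 lower). Leave-one-out counts were 739 to 3040, of which 177 to 1324 higher and 561 to 1716 lower; the count moved over 1.5 times without HTB replicate 2 (3040), HTB replicate 3 (739), HTB replicate 4 (743), HTB replicate 5 (933) or LTB replicate 3 (940). Calls in the other enzymes numbered 1 with quality weights, 2 without both libraries and 0 to 1 leave-one-out; in SREBP control 1, 1 and 0 to 1; in uptake 2, 3 and 0 to 1, and 2 by DESeq2; in efflux 8, 7 and 2 to 6, and 1 with the replicate block; in fatty acid synthesis 3, 3 and 0 to 2. The cause of these shifts was not tested. With the replicate block Ch25h had an adjusted p of 0.0544 (edgeR). Same-numbered libraries correlated at 0.002 to 0.109. Differently numbered libraries were not compared in this way, so whether the numbers pair the samples cannot be told.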

Other observations

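Scd2, a desaturase isoform without the sharp peak of Scd1 in HTB replicate 2, did not pass between the groups (log2 change -0.68 ± 0.30, adjusted p = 0.159, edgeR). HTB libraries spanned 295 to 394 CPM and LTB libraries 222 to 933 CPM, with LTB replicate 1 lowest and LTB replicate 5 highest, the same 2 libraries that bounded most cholesterol synthesis genes. Without LTB replicate 1 it passed as lower in HTB (adjusted p = 0.0240, edgeR).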
